A study of Mus musculus with 21 samples.

Results

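The genes described here are 54 genes of the cell cycle and of mitosis, from the cyclins and the replication licensing factors to the kinetochore and the spindle motors. They were taken by name, and a gene was measured where the array annotation assigned a probe set to it alone. This held for 53 of the 54 genes, with 119 probe sets, of which 114 passed the filter on low intensity, and all 53 genes were among the 17403 genes tested. Ccnb1 had no probe set annotated to it alone and was not analysed here. The arrays measured dorsal skin of female mice of the albino hairless strain Hos:HR-1, which were obtained at 6 weeks of age and then acclimated. Mice of 5 groups were UV-irradiated for 1, 2, 4, 6 or 8 weeks with UV lamps, and the dose rose each week by 1 minimal erythema dose (MED, 100 mJ per square centimetre) up to 4 MED. Mice of the other 2 groups were non-irradiated and were sampled at weeks 1 and 8. Each of the 7 groups had 3 arrays, 21 in all, and no non-irradiated group of weeks 2, 4 or 6 was analysed here. Values are log2 intensities per probe set. According to the animal methods 3 mice were allotted to each group, as many as there are arrays, but no source used here ties each array to 1 mouse, so the spread between arrays may be in part technical. The whole skin was measured, so a different number of cycling cells and a different amount of RNA per cell cannot be told apart.

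A dividing cell passes from growth (G1) through DNA synthesis (S) and a second gap (G2) into mitosis (M). D-type cyclins answer growth signals, E-type cyclins start S phase, cyclin A2 acts in S and G2, and B-type cyclins with Cdk1 drive mitosis. The transcripts of most of these genes are made in waves, with E2F factors acting at the start of S phase and the DREAM and MuvB complexes, with Foxm1 and the CCAAT-binding factor NF-Y, acting on the genes of G2 and mitosis. In skin, cycling cells are found in the basal layer of the epidermis, in the matrix of growing hair follicles and in sebaceous glands, and repeated UV exposure is known to thicken the epidermis.

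The promoters of 6 genes are shown because they belong to 4 genes that were called higher at UV week 8 and to 2 standard markers of cycling cells that were not. The bases are those before the annotated start of each gene in RefSeq (build GRCm38.p6), 120 in each case, written 5′ to 3′ on the strand of the gene. The stretches are Rrm2 (chr12:24708134-24708253, plus strand), Mcm5 (chr8:75109389-75109508, plus strand), Cdc20 (chr4:118437344-118437463, minus strand), Bub1 (chr2:127831860-127831979, minus strand), Top2a (chr11:99024190-99024309, minus strand) and Cdk1 (chr10:69352913-69353032, minus strand). Capitals mark the CCAAT box (CCAAT) and the cell cycle homology region of the DREAM and MuvB complexes (CHR, TTTGAA), on either strand.
Rrm2: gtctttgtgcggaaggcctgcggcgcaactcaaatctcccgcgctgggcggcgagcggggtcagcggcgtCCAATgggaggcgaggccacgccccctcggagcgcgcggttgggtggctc
Mcm5: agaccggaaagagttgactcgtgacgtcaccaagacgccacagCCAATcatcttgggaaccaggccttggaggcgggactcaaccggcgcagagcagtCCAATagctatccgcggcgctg
Cdc20: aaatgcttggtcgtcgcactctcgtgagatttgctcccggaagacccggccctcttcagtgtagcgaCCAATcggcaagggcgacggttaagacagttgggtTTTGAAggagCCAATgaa
Bub1: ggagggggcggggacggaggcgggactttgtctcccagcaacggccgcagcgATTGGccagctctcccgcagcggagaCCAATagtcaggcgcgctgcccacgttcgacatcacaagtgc
Top2a: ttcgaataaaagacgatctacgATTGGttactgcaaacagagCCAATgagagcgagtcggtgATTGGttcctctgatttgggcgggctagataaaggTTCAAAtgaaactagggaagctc
Cdk1: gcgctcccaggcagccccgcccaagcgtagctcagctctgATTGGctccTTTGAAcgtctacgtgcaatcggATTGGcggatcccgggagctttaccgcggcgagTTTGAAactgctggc
Cdk1 carries a CHR that ends 10 bases before its start, Cdc20 one that ends 13 bases and Top2a one that ends 18 bases before it, and all 6 stretches hold at least 1 CCAAT box. The 250 bases before the start were available for 42 of the 53 genes. A CCAAT box was present in 28 of these 42 (66.7%), against 37.5% of 27025 genes. The CHR was present in 12 (28.6%, against 18.3%), and an E2F site (GCGGGAA or GCGCGAA) in 6 (14.3%, against 5.74%). Both strands were searched, and none of these motifs contains another. Of the 13 genes that were called higher at UV week 8 against either control group, 9 were among the 42, and the CCAAT box was present in 6 of these (66.7%) and in 22 of the other 33 (66.7%). A match is a description of the letters and not of binding.

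The arrays differed in RNA quality, within groups as well as between them. The ratio of the 3′ to the 5′ control probe set of beta-actin, which rises when RNA is degraded or shortened, was above 4 on the log2 scale on 8 of the 21 arrays. These were array 12 of control week 1, arrays 112 and 114 of UV week 1, array 333 of UV week 4, arrays 441 and 445 of UV week 6, and arrays 552 and 555 of UV week 8. The mean of a group was lowest at UV week 2 (2.85 ± 0.53, SD, n = 3) and highest at UV week 8 (4.27 ± 1.30). The same ratio of Gapdh ordered the groups otherwise. It was lowest at UV week 2 (3.42 ± 0.86) and highest in control week 8 (5.68 ± 0.73), with 4.79 ± 2.10 at UV week 8. Within UV week 8 the arrays were unlike each other in the cell cycle genes. Array 551 was above the mean of the 6 control arrays in 50 of 53 genes with a median difference of 0.47, array 555 in 40 with a median of 0.35, and array 552 in 23 with a median of -0.07. Array 552 was the lowest of its group in 45 of the 53 genes (84.9%), and it was the lowest in 29.2% of all genes tested. In control week 1, array 12 was the highest of its group in 33 of the 53 genes (62.3%), and in 45.7% of all genes. The medians at UV weeks 6 and 8 are given with and without the 8 arrays. Without them UV weeks 1, 6 and 8 are arrays 116, 443 and 551 alone.

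**Figure D1:**
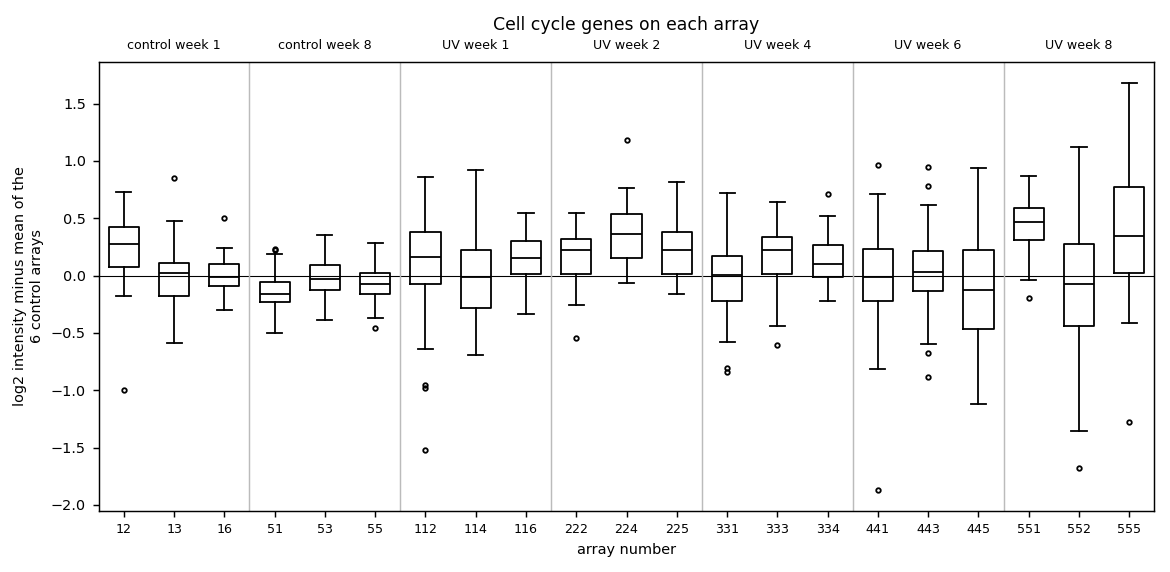
Log2 intensity of the 53 cell cycle genes on each of the 21 arrays, minus the mean of the 6 control arrays for the same gene. Boxes show the median and the quartiles over genes, whiskers reach at most 1.5 times the box length, and circles are single genes. The 3 arrays of UV week 2 have medians of 0.22, 0.37 and 0.22, and at UV week 8 array 552 has a median of -0.07 beside 0.47 and 0.35.

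A second property is the name of the probe set. Probe sets of this array whose names end in x_at hold some probes that match other transcripts as well, so their intensity can carry signal from more than 1 gene. The probe set of highest mean stood for each gene, and this was an x_at probe set in 8 of the 53 cell cycle genes (Ccne1, Cdc25c, Mcm4, Mcm5, Rrm2, Cdc20, Aurkb and Kif2c) and in 776 of the 17403 genes tested. Over all genes, those read at an x_at probe set were shifted upwards at UV week 1 without a call, with a median log2 fold change of 0.25 against 0.04 for the other genes. Of the 9 cell cycle genes that were higher at UV week 1 at an unadjusted p under 0.05, 6 were among the 8 read at an x_at probe set. At UV week 8 against control week 1 the medians were 0.23 and 0.04, and 15.1% of the x_at genes were called higher against 5.29% of the others. The calls at UV weeks 6 and 8 are therefore given with the x_at probe sets and without them.

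No cell cycle gene was called at UV weeks 1, 2 or 4, and most of the calls came at week 8. A gene was called where its adjusted p (limma, Benjamini-Hochberg over all 40540 probe sets) was at most 0.05, with no minimum fold. Relative to control week 1, 0 of 53 genes were called at UV week 1 (9 higher and 2 lower at an unadjusted p under 0.05), where 0% of all genes were called higher and 0.0115% lower. At UV week 2 there were again 0 calls (8 higher and 0 lower unadjusted), beside 0.0287% higher and 0.046% lower of all genes. At UV week 4 there were 0 calls (4 higher and 0 lower unadjusted), beside 0.517% and 1.16%. Array 12 of control week 1 was the highest control in many of these genes. Without it, 4 genes were called higher at UV week 1 and 1 at UV week 4. Without the 8 arrays of high beta-actin ratio 6 were called higher at UV week 4. The shares of all genes called in these refits are not given here, so these counts cannot be set beside the arrays as a whole. At UV week 6, 3 genes were called higher (5.66%) and 4 lower (7.55%), beside 5.29% and 7.65% of all genes, so the share of calls was near that of the arrays as a whole. At UV week 8, 8 genes were called higher (15.1%) and 1 lower (1.89%), beside 5.72% and 8.35%. Against control week 8, the non-irradiated group of the same week, 11 genes were called higher (20.8%) and none lower, beside 2.8% and 5.29% of all genes, and in limma 24 were higher and 0 lower at an unadjusted p under 0.05. The 5 UV groups together against both control groups gave 10 genes higher (18.9%) and 0 lower (3 unadjusted), beside 6.81% and 9.84%. A moderated F test over the 7 groups called 7 genes (13.2%: Ccne2, Cdt1, Kif2c, Mcm4, Mcm5, Rrm2 and Shcbp1), beside 11% of all genes. The comparisons with control week 1 share its 3 arrays.

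**Figure D2:**
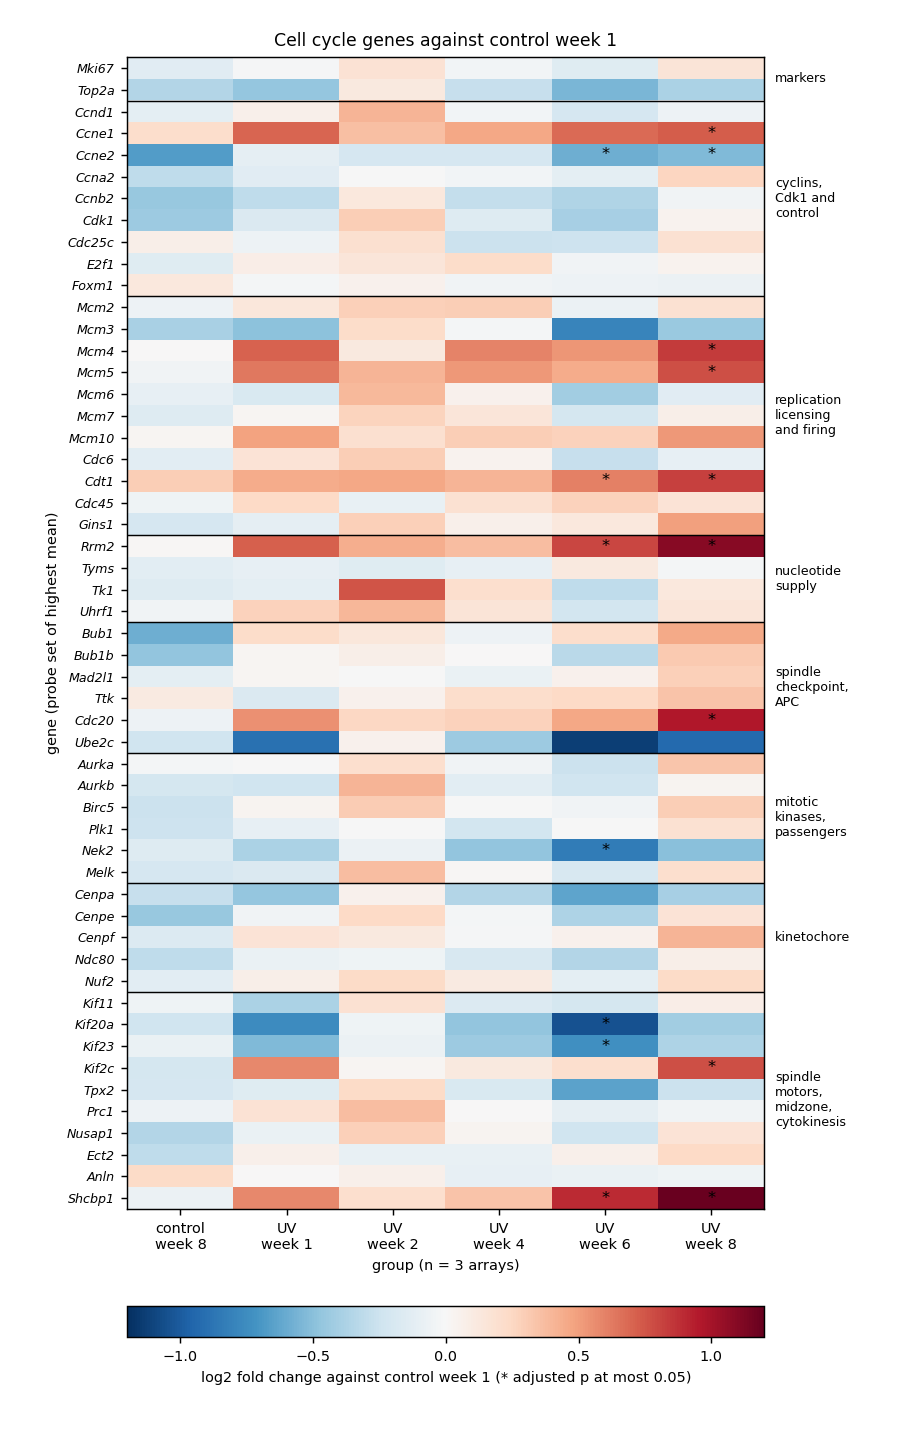
Log2 fold change against control week 1 of the 53 cell cycle genes (rows, grouped by role) in control week 8 and at UV weeks 1, 2, 4, 6 and 8 (columns, n = 3 arrays each). Red is higher, blue is lower, and an asterisk marks an adjusted p of at most 0.05, which occurs in 7 genes at UV week 6 and in 9 at UV week 8.

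At UV week 8 the genes called higher act in several phases of the cycle. Against control week 1 they were Ccne1, Mcm4, Mcm5, Cdt1, Rrm2, Cdc20, Kif2c and Shcbp1, with log2 fold changes between 0.73 and 1.19, and the gene called lower was Ccne2 (-0.53). Against control week 8 they were Ccna2, Mcm4, Mcm5, Gins1, Rrm2, Bub1, Bub1b, Cdc20, Cenpf, Kif2c and Shcbp1, between 0.57 and 1.26. The 6 genes Cdc20, Kif2c, Mcm4, Mcm5, Rrm2 and Shcbp1 were called in both comparisons, which share the arrays of UV week 8, 13 were called in at least 1 of them and 40 in neither. The median over the 53 genes was 0.16 against control week 1 and 0.29 against control week 8, beside 0.05 and 0.06 over all genes, and 36 and 42 of the 53 genes were positive. Without the 8 arrays of high beta-actin ratio the medians were 0.44 and 0.49, with 49 and 51 genes positive. A change of at least 2-fold was reached by 2 of the called genes against control week 1 (Rrm2 and Shcbp1) and by 4 against control week 8 (these and Bub1 and Cdc20), beside 0.994% and 0.569% of all genes. Of the 8 genes called against control week 1, 6 were read at an x_at probe set. The calls were 6 of the 8 genes so read (75%, beside 15.1% over all genes). They were 2 of the other 45 (4.44%, beside 5.29%), so outside x_at probe sets the share was near that of all genes. Against control week 8 they were 5 of the 8 (62.5%, beside 7.22%) and 6 of the 45 (13.3%, beside 2.59%). With each gene read at its highest probe set of another name, the 3 genes Cdt1, Kif2c and Shcbp1 were called higher against control week 1, and 7 against control week 8 (Bub1, Bub1b, Ccna2, Cenpf, Gins1, Kif2c and Shcbp1). Of all genes, read at the probe set of highest mean, 5.72% and 2.8% were called higher. A fit to the 2 compared groups alone called none in either comparison, and it called few of all 40540 probe sets. These were 32 higher and 55 lower against control week 1, and 15 and 17 against control week 8. Leaving out 1 array also moved the counts. Without array 13, 16 or 555, 3 genes were called higher against control week 1, and without array 551 there were 11 higher and 9 lower. Against control week 8, 3 were called higher without array 51 or 55 and 1 without array 555. Over all 40540 probe sets, 2186 were called higher and 2729 lower against control week 1 with all arrays. Without array 551 these counts were 8870 and 6812. Without array 13, 16 or 555 the counts higher were 368, 866 and 404. With each of the 6 arrays of a comparison left out in turn, both calls of Shcbp1 and those of Rrm2 and Cdt1 against control week 1 held in all 6 fits, and that of Rrm2 against control week 8 in 5. Against control week 1, the calls of Mcm5, Cdc20 and Kif2c held in 3 and those of Ccne1 and Mcm4 in 2 of the 6, and that of Ccne2 was lost without array 12, 13, 16 or 552. Against control week 8, the call of Bub1 held in 4, those of Bub1b, Cdc20, Gins1, Kif2c and Mcm5 in 3, those of Ccna2 and Mcm4 in 2 and that of Cenpf in 1 of the 6. Without the 8 arrays of high beta-actin ratio UV week 8 is array 551 alone. That fit takes its spread from the other groups, so no count of calls is given for it.

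**Figure D3:**
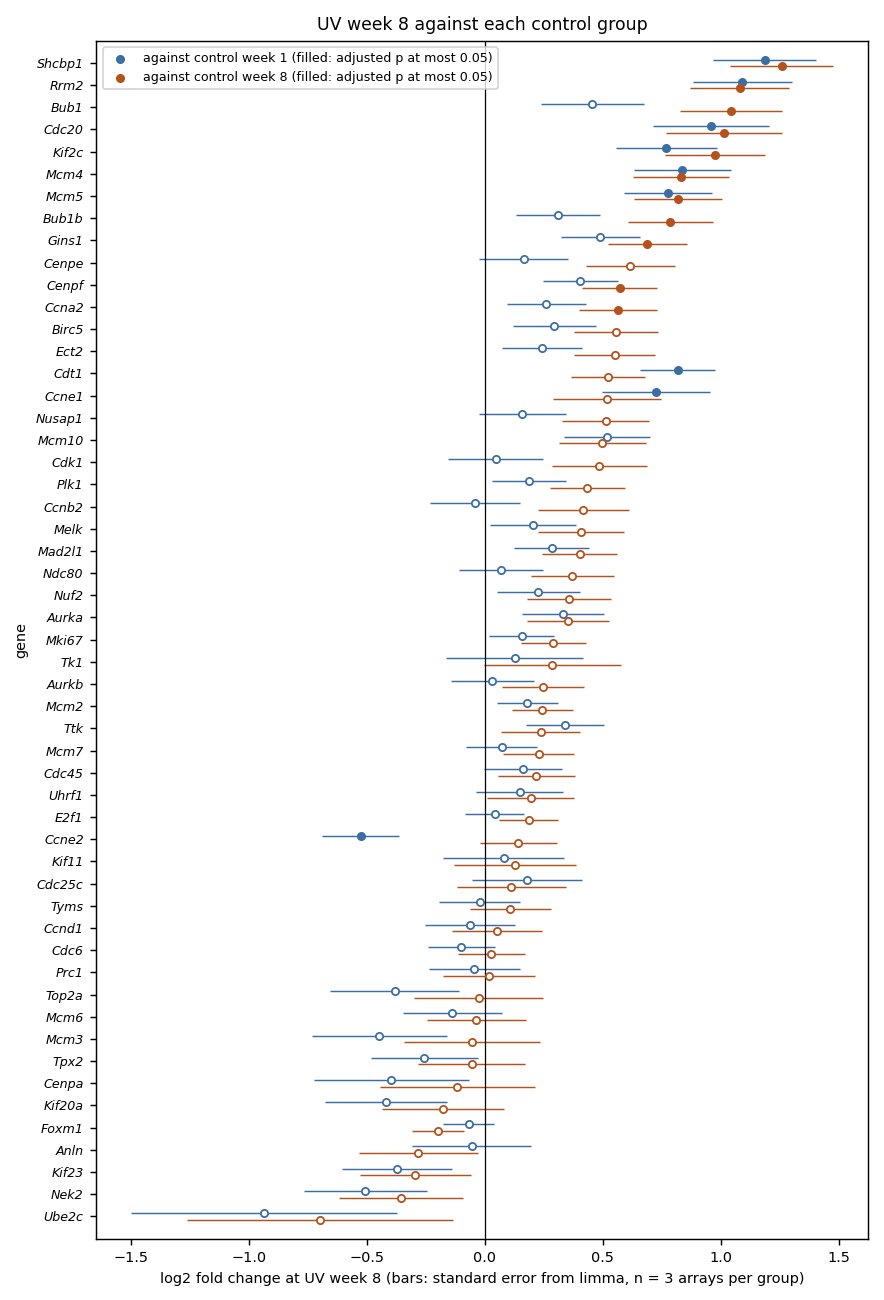
Log2 fold change of the 53 cell cycle genes at UV week 8 against control week 1 (blue) and against control week 8 (orange), with the standard error from limma as bars (n = 3 arrays per group). Filled points have an adjusted p of at most 0.05, 9 in blue and 11 in orange, and genes are sorted by the comparison with control week 8, from Shcbp1 at 1.26 to Ube2c at -0.70.

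The standard markers of cycling cells were not called at UV week 8. Mki67 encodes the Ki-67 protein that coats mitotic chromosomes and is the usual stain for cycling cells. Its log2 intensities were 10.35, 10.10 and 10.10 in control week 1, 9.89, 10.13 and 10.13 in control week 8, 10.05, 10.36 and 10.10 at UV week 1, 10.35, 10.50 and 10.22 at week 2, 9.97, 10.30 and 10.17 at week 4, 10.05, 10.19 and 9.88 at week 6 and 10.45, 10.13 and 10.44 at week 8. The arrays of UV week 8 overlapped with both control groups, those of UV week 2 were all above those of control week 8 and of UV week 6, and all 21 values lay within 9.88 to 10.50. At UV week 8 Mki67 differed by 0.16 (SE 0.14, adjusted p = 0.438) against control week 1 and 0.29 (SE 0.14, adjusted p = 0.179) against control week 8. Top2a, the topoisomerase that untangles DNA before chromosomes part, had 9.77, 9.83 and 9.40 in control week 1, 9.27, 9.29 and 9.38 in control week 8, 9.13, 8.90 and 9.56 at UV week 1, 9.42, 10.09 and 9.85 at week 2, 9.13, 9.54 and 9.50 at week 4, 9.13, 9.27 and 8.96 at week 6 and 10.06, 8.53 and 9.27 at week 8. Arrays 551 and 552 of UV week 8 were the second highest and the lowest of the 21, so the mean of this group stands for values from 8.53 to 10.06. Top2a thus differed by -0.38 (SE 0.27, adjusted p = 0.342) against control week 1 and -0.03 (SE 0.27, adjusted p = 0.958) against control week 8, and without array 552 the latter was 0.35. Without array 551 the difference from control week 1 was -0.77, which passed as lower.

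Among the cyclins, Cdk1 and the factors that control them, 9 genes were tested. At UV week 8, 1 was called higher (Ccne1) and 1 lower (Ccne2) against control week 1, and 1 higher (Ccna2) against control week 8. The paralogous cyclins E1 and E2, which both activate Cdk2 at the start of S phase, were thus called in opposite directions. Where a gene is given with 2 log2 fold changes at UV week 8, the first is against control week 1 and the second against control week 8. Ccne1 had 7.29, 6.39 and 6.95 in control week 1, 7.17, 7.07 and 7.01 in control week 8, 7.78, 7.74 and 7.21 at UV week 1, 7.26, 7.18 and 7.27 at week 2, 7.43, 7.36 and 7.25 at week 4, 7.30, 7.44 and 7.92 at week 6 and 7.15, 7.60 and 8.07 at week 8. Array 13 of control week 1 was the lowest and array 555 the highest of all, and the groups of control week 1 and UV week 8 overlapped. The difference was 0.73 (SE 0.23, adjusted p = 0.0464), and 0.52 (SE 0.23, adjusted p = 0.153) against control week 8. At its other probe set, which has no x_at name, Ccne1 had a log2 fold change of 0.11 against control week 1, and the call was lost. Ccne2 had 6.37, 6.55 and 6.30 in control week 1, 5.57, 5.68 and 5.96 in control week 8, 6.26, 6.32 and 6.32 at UV week 1, 6.26, 6.17 and 6.17 at week 2, 6.06, 6.30 and 6.25 at week 4, 6.04, 5.86 and 5.56 at week 6 and 6.03, 5.46 and 6.15 at week 8. All arrays of UV week 8 lay below the 3 of control week 1, and so did those of control week 8. Ccne2 differed by -0.53 (SE 0.16, adjusted p = 0.0427) against control week 1, but 0.14 (SE 0.16, adjusted p = 0.572) against control week 8, and the 2 control groups differed by -0.67 (SE 0.16, adjusted p = 0.242).

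Ccna2 encodes cyclin A2, which acts in S phase and G2. Its log2 intensities were 7.81, 7.34 and 7.36 in control week 1, 7.12, 7.29 and 7.20 in control week 8, 7.36, 7.41 and 7.33 at UV week 1, 7.36, 7.66 and 7.49 at week 2, 7.46, 7.68 and 7.27 at week 4, 7.58, 7.42 and 7.16 at week 6 and 7.88, 7.39 and 8.02 at week 8. Each array of UV week 8 was above the 3 of control week 8, the highest of which was 7.29. Ccna2 differed by 0.57 (SE 0.17, adjusted p = 0.049) against control week 8 and 0.26 (SE 0.17, adjusted p = 0.286) against control week 1, and its second probe set gave 0.72 against control week 8 and 0.66 against control week 1, both called. Cdk1, the kinase that starts mitosis, had 7.79, 7.48 and 7.44 in control week 1, 7.13, 7.17 and 7.09 in control week 8, 7.48, 7.12 and 7.58 at UV week 1, 7.68, 7.89 and 8.03 at week 2, 7.18, 7.62 and 7.45 at week 4, 7.25, 7.27 and 6.98 at week 6 and 7.94, 7.02 and 7.89 at week 8. Arrays 551 and 555 of UV week 8 were above all controls and array 552 was below them. The values were 0.05 (SE 0.20, adjusted p = 0.89) and 0.49 (SE 0.20, adjusted p = 0.131) against the controls of weeks 1 and 8, and without array 552 the latter was 0.79, which passed. Ccnd1, the D-type cyclin that couples growth signals to the cycle, had 9.28, 8.86 and 9.01 in control week 1, 8.94, 8.97 and 8.89 in control week 8, 9.26, 8.74 and 9.33 at UV week 1, 9.30, 9.52 and 9.56 at week 2, 8.84, 9.16 and 9.04 at week 4, 8.85, 9.03 and 8.66 at week 6 and 9.33, 8.52 and 9.11 at week 8. The 3 arrays of UV week 2 were above all 6 control arrays, yet neither that comparison (0.41, SE 0.19, adjusted p = 0.773) nor UV week 8 (-0.06 and 0.05) was called. Ccnb2, a B-type cyclin, had -0.04 and 0.42, and Cdc25c, the phosphatase that frees Cdk1, 0.18 and 0.11. The transcription factors E2f1 (0.04 and 0.19) and Foxm1 (-0.07 and -0.20) were not called at the probe set of highest mean. A dimmer probe set of Foxm1 was called higher against control week 1 (0.46, adjusted p = 0.0346).

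Of 11 genes of replication licensing and firing, 3 were called higher against control week 1 (Cdt1, Mcm4 and Mcm5) and 3 against control week 8 (Gins1, Mcm4 and Mcm5), and none was called lower. The Mcm2 to Mcm7 proteins form the ring that unwinds DNA at the fork, and 2 of their 6 transcripts were called. Mcm5 had 9.44, 8.89 and 8.93 in control week 1, 9.01, 9.21 and 8.91 in control week 8, 9.92, 9.62 and 9.61 at UV week 1, 9.42, 9.67 and 9.39 at week 2, 9.52, 9.71 and 9.59 at week 4, 9.45, 9.44 and 9.69 at week 6 and 9.76, 9.49 and 10.33 at week 8. Of the 15 arrays of the UV groups 12 were above the highest control array, 9.44, among them the 3 of UV week 8. The log2 fold change at UV week 8 was 0.78 (SE 0.19, adjusted p = 0.0145) against control week 1 and 0.82 (SE 0.19, adjusted p = 0.0186) against control week 8. Its 2 other probe sets, which are dimmer and have no x_at name, gave -0.31 and -0.16 against control week 1. Mcm4 had 10.004, 9.33 and 9.29 in control week 1, 9.39, 9.76 and 9.50 in control week 8, 10.31, 10.41 and 10.03 at UV week 1, 9.83, 9.69 and 9.47 at week 2, 10.26, 9.90 and 10.26 at week 4, 9.98, 10.16 and 10.07 at week 6 and 9.95, 10.41 and 10.78 at week 8. Array 551 was below array 12 of control week 1, and the other 2 arrays of UV week 8 were above all controls. The difference was 0.84 (SE 0.21, adjusted p = 0.0157) and 0.83 (SE 0.21, adjusted p = 0.0253), and the other probe set of Mcm4 gave 0.16 and 0.08. Mcm2 had 8.46, 8.47 and 8.39 in control week 1, 8.49, 8.45 and 8.20 in control week 8, 8.58, 8.38 and 8.77 at UV week 1, 8.64, 8.76 and 8.79 at week 2, 8.71, 8.79 and 8.71 at week 4, 8.26, 8.47 and 8.38 at week 6 and 8.83, 8.37 and 8.66 at week 8. The arrays of UV weeks 2 and 4 were all above the 6 controls, without a call, and UV week 8 overlapped them (0.18, adjusted p = 0.337). Mcm3 (-0.45), Mcm6 (-0.14) and Mcm7 (0.07) were not called at the probe set of highest mean. A dimmer x_at probe set of Mcm7 was called higher against both controls (0.49, adjusted p = 0.026, and 0.60, adjusted p = 0.0165), and one of Mcm6 against control week 8 (0.57, adjusted p = 0.035).

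Cdt1 loads the Mcm ring on DNA and is destroyed once S phase begins. Its log2 intensities were 9.25, 8.85 and 8.82 in control week 1, 9.34, 9.26 and 9.19 in control week 8, 9.59, 9.33 and 9.31 at UV week 1, 9.51, 9.55 and 9.25 at week 2, 9.51, 9.28 and 9.35 at week 4, 9.53, 9.56 and 9.64 at week 6 and 9.61, 9.57 and 10.19 at week 8. All arrays of UV weeks 6 and 8 were above the 6 controls. The log2 fold change was 0.61 (SE 0.16, adjusted p = 0.0216) at UV week 6 and 0.82 (SE 0.16, adjusted p = 0.00424) at UV week 8 against control week 1, and 0.52 (SE 0.16, adjusted p = 0.0519) against control week 8. Of its other probe sets, a dim one with a mean log2 intensity of 3.11 was called higher against control week 1 as well (0.57, adjusted p = 0.0358). A brighter one, with a mean of 6.03, gave -0.49 against control week 1 and -0.62 against control week 8 without a call. Gins1, a subunit of the complex that activates the helicase, had 7.06, 7.03 and 7.37 in control week 8 and 7.64, 7.63 and 8.26 at UV week 8, and the groups did not overlap (0.69, SE 0.17, adjusted p = 0.0243). Cdc6, the partner of Cdt1 in loading, had -0.10 and 0.03, and Cdc45, which joins the helicase, 0.16 and 0.22. Mcm10, which acts as the helicase starts, was not called at UV week 8 (0.52 and 0.50) and was called in the mean of the UV groups (0.34, SE 0.11, adjusted p = 0.0415).

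Rrm2 was the only one of the 4 genes of nucleotide supply and of the upkeep of DNA methylation that was called. It encodes the small subunit of ribonucleotide reductase, the enzyme that makes deoxynucleotides. Rrm2 had 10.34, 9.58 and 9.68 in control week 1, 9.71, 10.01 and 9.90 in control week 8, 10.71, 10.79 and 10.24 at UV week 1, 10.32, 10.42 and 10.17 at week 2, 10.37, 10.19 and 10.15 at week 4, 10.58, 10.65 and 10.75 at week 6 and 10.59, 10.83 and 11.45 at week 8. The arrays of UV weeks 6 and 8 were all above the 6 controls, the highest of which was array 12. The log2 fold change was 0.80 (SE 0.21, adjusted p = 0.0229) at UV week 6 and 1.09 (SE 0.21, adjusted p = 0.00425) at UV week 8, with 1.08 (SE 0.21, adjusted p = 0.00871) against control week 8, a 2.13-fold and a 2.12-fold difference. These values belong to an x_at probe set. The 2 other probe sets of Rrm2 gave 0.02 and -0.09 against control week 1, and 0.32 and 0.18 against control week 8, none called. Tk1, the thymidine kinase of S phase, was 0.75 at UV week 2, where its arrays (6.08, 6.76 and 6.39) were above all controls (at most 5.72), without a call (adjusted p = 0.605). Uhrf1, which guides methylation to new DNA, had 0.15 and 0.19 at UV week 8. Tyms, the thymidylate synthase, was the dimmest of the 53 genes with a mean log2 intensity of 3.45.

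**Figure D4:**
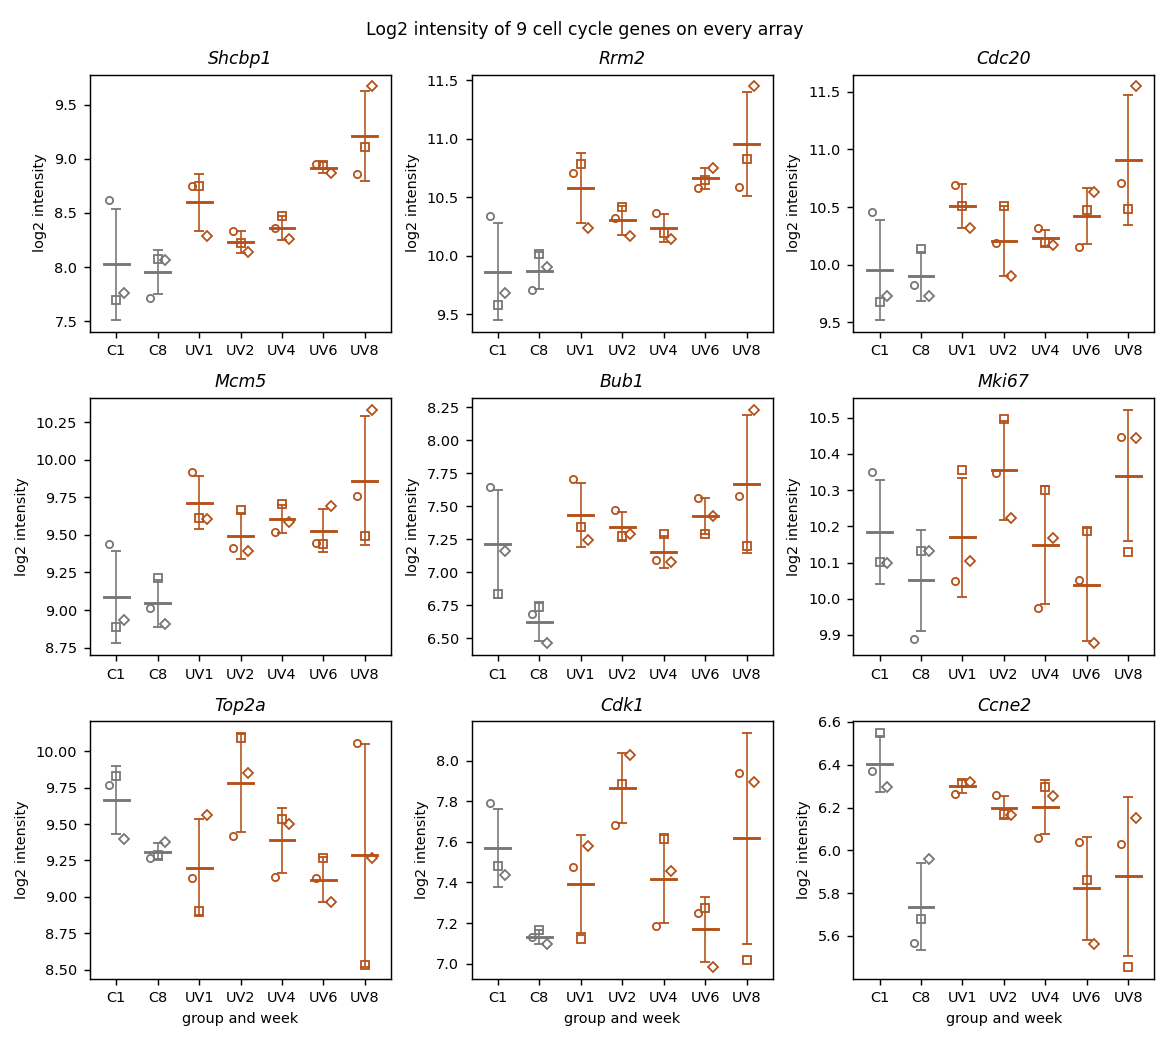
Log2 intensity of 9 cell cycle genes on every array, in control weeks 1 and 8 (C1 and C8, grey) and UV weeks 1 to 8 (UV1 to UV8, orange). Lines are means, bars are 1 SD (n = 3), and the markers within a group are its 3 arrays in order of array number. Shcbp1 and Rrm2 are above all controls at UV weeks 6 and 8, Mki67 at UV week 8 overlaps with both control groups, and Top2a and Cdk1 spread widely at UV week 8.

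Of the 6 genes of the spindle checkpoint and the anaphase-promoting complex, 3 were called higher against control week 8 (Bub1, Bub1b and Cdc20) and 1 against control week 1 (Cdc20). Cdc20 activates the complex once every chromosome is attached. Cdc20 had 10.46, 9.68 and 9.73 in control week 1, 9.83, 10.14 and 9.73 in control week 8, 10.70, 10.51 and 10.31 at UV week 1, 10.19, 10.51 and 9.90 at week 2, 10.31, 10.20 and 10.17 at week 4, 10.16, 10.48 and 10.63 at week 6 and 10.71, 10.48 and 11.55 at week 8. Each array of UV week 8 was above all controls, and array 555 was the highest of all 21. The difference was 0.96 (SE 0.25, adjusted p = 0.0199) and 1.01 (SE 0.25, adjusted p = 0.024) against the controls of weeks 1 and 8. The other x_at probe set of Cdc20 gave 0.37 and 0.57, and the remaining one gave -0.15 and 0.04, none called. Bub1, the checkpoint kinase, had 7.64, 6.83 and 7.16 in control week 1, 6.68, 6.73 and 6.46 in control week 8, 7.71, 7.34 and 7.25 at UV week 1, 7.47, 7.28 and 7.29 at week 2, 7.09, 7.29 and 7.08 at week 4, 7.56, 7.29 and 7.43 at week 6 and 7.58, 7.20 and 8.23 at week 8. All 15 arrays of the UV groups were above the 3 of control week 8, and they overlapped with control week 1. Bub1 differed by 1.04 (SE 0.22, adjusted p = 0.0128) against control week 8 and 0.46 (SE 0.22, adjusted p = 0.16) against control week 1, and the 2 control groups differed by -0.59 (SE 0.22, adjusted p = 0.736). Bub1b, which encodes BubR1 and holds back Cdc20, had 5.99, 6.35 and 6.28 in control week 8 and 6.95, 6.77 and 7.26 at UV week 8 (0.79, SE 0.18, adjusted p = 0.0181), and its second probe set gave -0.16. Mad2l1 (0.40) and Ttk (0.24), the other checkpoint genes, were not called. Ube2c, the ubiquitin-conjugating enzyme of the complex, spread most between arrays of a group (pooled SD 0.78), with 4.93, 6.78 and 6.43 in control week 1 and 6.44, 4.25 and 4.65 at UV week 8.

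None of the 6 genes of the mitotic kinases and the chromosomal passenger complex was called at UV week 8 at its probe set of highest mean (in limma 0 of 6, and at an unadjusted p under 0.05 0 against control week 1 and 3 against control week 8). Aurka, a kinase of the centrosome, had 0.33 and 0.35. Aurkb and Birc5, both part of the passenger complex at the centromere, had 0.03 and 0.25, and 0.30 and 0.56. Plk1, a kinase of mitotic entry and exit, had 0.19 and 0.44, and Melk, a kinase of cycling cells, 0.20 and 0.41. Nek2, which splits the centrosomes, had 7.03, 6.96 and 6.96 in control week 1, 6.70, 6.83 and 6.97 in control week 8, 6.77, 6.24 and 6.82 at UV week 1, 6.85, 7.01 and 6.87 at week 2, 6.37, 6.47 and 6.69 at week 4, 6.23, 6.31 and 5.90 at week 6 and 7.03, 5.55 and 6.85 at week 8. Array 552 was the lowest of the 21 and the other 2 arrays of UV week 8 were within the range of the controls. Nek2 had log2 fold changes at UV week 8 of -0.51 and -0.36, and without array 551 the former was -0.78, which passed. A dimmer probe set of Nek2 was called lower against control week 8 (-0.63, adjusted p = 0.034). At UV week 6 the 3 arrays were below all controls, and Nek2 was called lower (-0.84, SE 0.26, adjusted p = 0.0458).

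Of the 5 genes of the centromere and kinetochore, 1 was called higher against control week 8 and 0 against control week 1. Cenpf, a large protein of the outer kinetochore, had 7.66, 7.06 and 7.42 in control week 1, 7.11, 7.38 and 7.14 in control week 8, 7.82, 7.35 and 7.45 at UV week 1, 7.52, 7.63 and 7.33 at week 2, 7.32, 7.52 and 7.26 at week 4, 7.39, 7.45 and 7.45 at week 6 and 7.67, 7.65 and 8.03 at week 8. The 3 arrays of UV week 8 were above those of control week 8, and array 12 of control week 1 was level with the lower of them. The difference was 0.57 (SE 0.16, adjusted p = 0.0402) against control week 8 and 0.41 (SE 0.16, adjusted p = 0.0967) against control week 1. Cenpe, the motor of the kinetochore, was 0.62 (SE 0.19, adjusted p = 0.0551) against control week 8. Cenpa, the histone that marks the centromere, had 8.06, 6.24 and 6.91 at UV week 8 and a log2 fold change of -0.40 against control week 1, where a dimmer probe set was called higher (0.76, adjusted p = 0.0268). Ndc80 and Nuf2, which bind microtubules, had log2 fold changes of 0.37 and 0.36 against control week 8.

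Shcbp1 had the largest log2 fold change of the 53 genes in both week 8 comparisons, and it is read at a single probe set without an x_at name. Its protein binds the adaptor Shc and is found at the midzone and midbody of dividing cells. The log2 intensities were 8.62, 7.69 and 7.76 in control week 1, 7.72, 8.08 and 8.06 in control week 8, 8.75, 8.75 and 8.29 at UV week 1, 8.33, 8.22 and 8.13 at week 2, 8.36, 8.47 and 8.26 at week 4, 8.95, 8.94 and 8.86 at week 6 and 8.85, 9.11 and 9.67 at week 8. The 3 arrays of UV week 6 and the 3 of UV week 8 were above all 6 controls, and array 12 was the highest control. The differences were 0.89 (SE 0.22, adjusted p = 0.0173) at UV week 6 and 1.19 (SE 0.22, adjusted p = 0.00328) at UV week 8 against control week 1, and 1.26 (SE 0.22, adjusted p = 0.00478) at UV week 8 against control week 8, a 2.28-fold and a 2.39-fold difference at week 8. Both week 8 calls held under each alternative except the fit to the 2 compared groups alone. Among the 9 other genes of the spindle motors, midzone and cytokinesis, Kif2c was the only one called at week 8. Kif2c, which takes microtubules apart at the centromere, had 7.94, 7.19 and 7.35 in control week 1, 7.001, 7.58 and 7.27 in control week 8, 8.16, 8.16 and 7.87 at UV week 1, 7.53, 7.69 and 7.32 at week 2, 7.44, 7.65 and 7.71 at week 4, 7.38, 7.85 and 7.86 at week 6 and 8.10, 7.999 and 8.69 at week 8. Each array of UV week 8 was above all controls, the highest of which was 7.94. Kif2c differed by 0.77 (SE 0.21, adjusted p = 0.0281) and 0.98 (SE 0.21, adjusted p = 0.0153), and a dimmer probe set without an x_at name was called in both comparisons as well (0.44 in each). Ect2, which starts cytokinesis, had 0.24 and 0.55. Nusap1 (0.16 and 0.51), Prc1 (-0.04 and 0.02), Tpx2 (-0.26 and -0.06), Kif11 (0.08 and 0.13) and Anln (-0.05 and -0.28), which bundle, build or move the spindle or close the furrow, were not called at the probe set of highest mean. A dimmer probe set of Kif11 was called lower against control week 1 (-0.98, adjusted p = 0.0445).

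At UV week 6 the calls went both ways. The 3 genes called higher, Cdt1, Rrm2 and Shcbp1, were also called at UV week 8 against the same controls. Without x_at probe sets Cdt1 and Shcbp1 were called higher, and the other probe sets of Rrm2 gave -0.19 and -0.28. The 4 called lower were Ccne2 (-0.58), Nek2, Kif23 and Kif20a. Kif20a, a motor of the midzone, had 5.61, 6.05 and 5.58 in control week 1 and 4.85, 4.74 and 4.50 at UV week 6, with no overlap (-1.05, SE 0.26, adjusted p = 0.0178). Kif23, the motor of centralspindlin, had 7.39, 7.52 and 7.44 and 6.60, 7.12 and 6.43 (-0.73, SE 0.23, adjusted p = 0.0483), while its 2 dimmer probe sets were called in opposite directions (0.45, adjusted p = 0.0499, and -0.48, adjusted p = 0.0228). Dimmer probe sets of Ccnd1 (0.58) and Top2a (0.59) were called higher and those of Kif11 (-1.05) and Tpx2 (-0.72) lower. Over all 114 probe sets, 6 were called higher and 7 lower, beside 2202 and 2553 of all 40540 probe sets. The median over the 53 genes was -0.15 and 36 were negative, beside a median of 0.04 over all genes. Without array 445 of UV week 6, which has a high beta-actin ratio, 1 gene was called higher and 0 lower, and without array 13 of control week 1 none was called either way. Without array 12, 6 were called higher and 2 lower, and without array 16 0 and 1. The counts over all probe sets in these refits are not given here, so a shift of the arrays as a whole cannot be told apart. Without all 8 arrays of high ratio UV week 6 is array 443 alone and control week 1 is arrays 13 and 16. The median over the genes was then 0.02.

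At UV week 2 many of the genes were slightly higher without a call. Of the 53 genes, 42 had a positive difference from control week 1, with a median of 0.19, beside 51.7% of all genes positive and a median of 0.01. The group mean was the highest of the 7 groups at UV week 2 in 22 genes and at UV week 8 in 21, and the lowest in control week 8 in 21 and at UV week 6 in 20. The largest differences at week 2 were Tk1 (0.75), Cdt1 (0.47) and Rrm2 (0.44), and the lowest adjusted p was not under 0.05. None of the 53 genes was called between consecutive UV weeks in limma. From UV week 1 to 2 there were 11 higher and 2 lower at an unadjusted p under 0.05 (0.0115% and 0.00575% of all genes called), from week 2 to 4 1 and 4 (0% and 0%), from week 4 to 6 1 and 8 (0% and 0.0115%), and from week 6 to 8 13 and 0 (0% and 0%). In the last step 50 of the 53 differences were positive with a median of 0.29, beside 51.7% and a median of 0.01 over all genes. UV week 2 held no array of high beta-actin ratio and UV weeks 6 and 8 held 2 each, and the part of this in the medians was not tested. With the ratio as a covariate the median at UV week 8 was 0.18 against control week 1 and 0.32 against control week 8.

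None of the genes was called between the non-irradiated groups. In control week 8 against control week 1, 0 of 53 genes were called in limma (0 higher and 6 lower at an unadjusted p under 0.05), beside 0.046% higher and 0.0517% lower of all genes. The difference was negative in 44 of the 53 genes with a median of -0.14, and over all genes the median was -0.0024. Relative to the mean of the 6 control arrays, array 12, which has a high beta-actin ratio, had a median of 0.27 over these genes. Arrays 13 and 16 of control week 1 had 0.02 and -0.01. Arrays 51, 53 and 55 of control week 8 had -0.16, -0.03 and -0.08. The 6 genes at an unadjusted p under 0.05 were Ccne2, Ccnb2, Cdk1, Bub1, Bub1b and Cenpe. Of these, Bub1 and Bub1b were called at UV week 8 against control week 8 and not against control week 1, and Ccne2 the other way round. With the mean of both control groups as the baseline, 13 genes were called higher and 0 lower at UV week 8. Over all 40540 probe sets this baseline gave 3568 higher and 3810 lower, beside 2186 and 2729 against control week 1.

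The 35 genes with more than 1 tested probe set show how far a value rests on the probe set chosen. In UV week 8 against control week 1, the probe sets of 22 of these genes had differences of both signs, and the median span between the lowest and the highest was 0.52. In the week 8 comparisons no gene was called higher at one probe set and lower at another. Over all 114 probe sets, 14 were called higher and 2 lower, and against control week 8 15 and 1. Of all 40540 probe sets, 2186 were called higher and 2729 lower, and against control week 8 1036 and 1745. Of the 18 probe sets with x_at names 7 were called higher against control week 1 (38.9%), of the other 96 there were 7 (7.29%). Over all genes, 15.1% of those read at an x_at probe set were called higher and 5.29% of the others. When each gene was read at its second probe set (its only one where there is no other), 5 genes were called higher and 2 lower against control week 1. The intensity cannot tell a gene's own RNA from that of others matched by an x_at probe set, and the part of such matches in the calls was not tested.

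**Figure D5:**
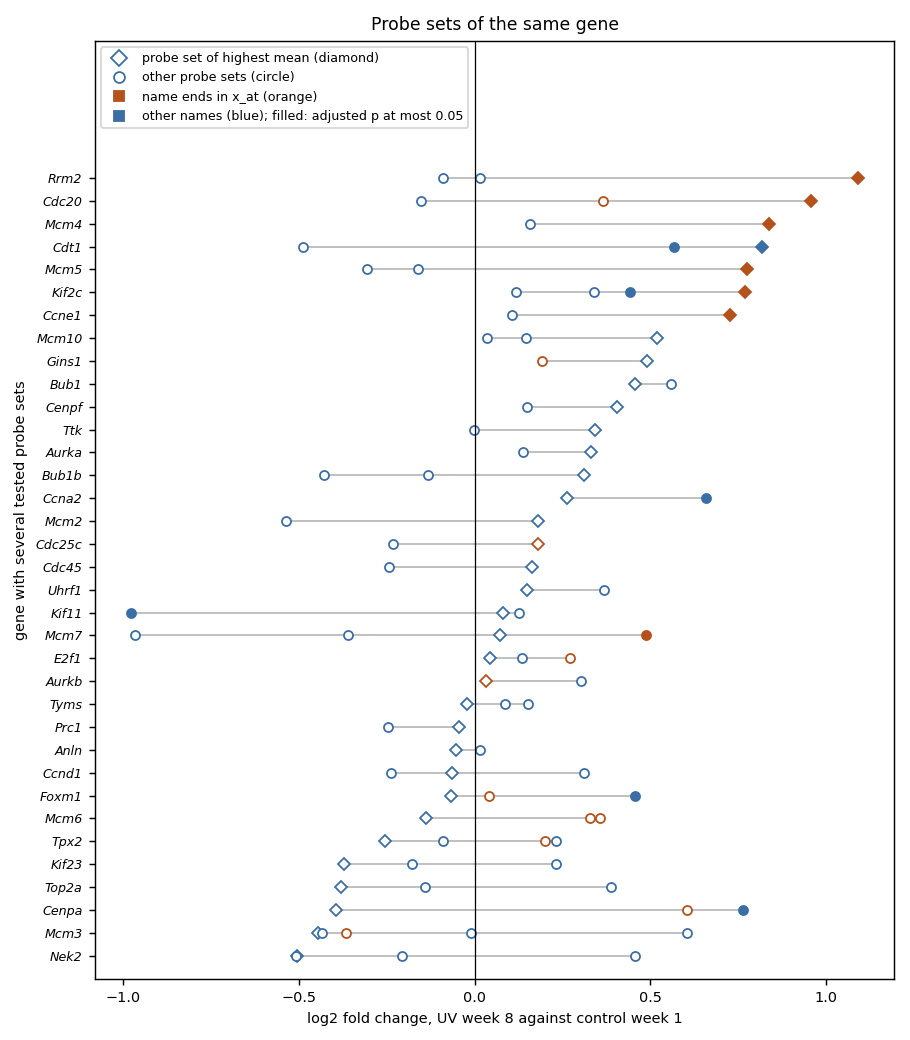
Log2 fold change at UV week 8 against control week 1 at each tested probe set of the 35 cell cycle genes with more than 1. Diamonds are the probe sets of highest mean, at which genes are read, orange marks names ending in x_at, and filled points have an adjusted p of at most 0.05. The diamonds of Rrm2, Cdc20, Mcm4, Mcm5 and Ccne1 are filled and orange, and their other probe sets are open.

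The wider cell cycle list, 97 further genes of which 94 were tested, gave more calls higher than lower, and most of its genes were not called. At week 8 against control week 1, 20 were called higher and 2 lower, beside 5.72% and 8.35% of all genes, and against control week 8 21 higher and 3 lower, beside 2.8% and 5.29%. Other mitosis genes gave 12 of 39 and 15 of 39 higher, among them Incenp (1.02, adjusted p = 0.0103), a scaffold of the passenger complex, Spc24 (0.87, adjusted p = 0.0151) of the kinetochore, and Pttg1 (0.84, adjusted p = 0.00976), the securin that guards sister chromatids. Other replication genes gave 6 and 4 of 20, among them Prim1 (1.19, adjusted p = 0.00275), the primase, Dnmt1 (0.97, adjusted p = 0.0142), the maintenance methyltransferase, and Rfc4 (0.95, adjusted p = 0.039) of the clamp loader. Of the 7 other E2F genes 1 was called higher, E2f8 (0.98, adjusted p = 0.00959), a repressor of E2F targets. Of 13 other cyclins and kinases 1 was called higher, Cks2 (0.70, adjusted p = 0.0195), a small partner of Cdk1. The 2 genes called lower were Cdkn1b (-0.47, adjusted p = 0.039), an inhibitor of cyclin-dependent kinases, and Rbl2 (-1.27, adjusted p = 0.0142), the p130 protein of the DREAM complex. Of the 94 genes, 7 were read at an x_at probe set, and 5 of these were called higher against control week 1 (Dnmt1 and Incenp among them) and 15 of the other 87. Cdkn1a, the p53 target p21, was -0.02 (SE 0.32, adjusted p = 0.977).

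Markers of the cell types of skin were read beside these results. Of all genes, 5.72% were called higher and 8.35% lower at UV week 8 against control week 1. The labelled tissue was checked at the keratins of the epidermis, which were abundant, Krt14 at a mean log2 intensity of 13.3 and Krt10 at 14.4. Against control week 1, UV week 8 had 9 of 11 markers of hair matrix and shaft called lower, with a median of -3.23, and their summed intensity lay between 7401 and 13545 in control week 1, 1745 and 3552 in control week 8, and 548 and 1351 at UV week 8. Against control week 8, 2 of the 11 were called lower, beside 5.29% of all genes. Of 7 markers of basal keratinocytes 2 were called lower (Krt15 and Trp63), of 8 of suprabasal keratinocytes 1 lower (Krt77), and of 7 of hyperproliferative keratinocytes 1 higher (Krt6b, 2.53). The summed intensity of the latter list lay between 14363 and 23277 in control week 1, and 13726 and 18251 in control week 8. At UV weeks 1, 2 and 4 it lay between 9449 and 19891, 16349 and 38552, and 15021 and 21169. At UV weeks 6 and 8 it lay between 20520 and 40702, and 24182 and 45117. Of the other lists, 3 of 6 fibroblast, 3 of 4 skeletal muscle, 3 of 3 adipocyte, 2 of 4 endothelial, 2 of 5 mast cell, 1 of 7 macrophage and dendritic cell and 1 of 6 T cell markers were called lower, and 1 each of 3 B cell, 4 neutrophil and 4 sebocyte markers higher. The lists are short, so a single call says little about a list. The part of a change in cell makeup in the values of the cell cycle genes was not tested.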

How the data were processed

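Total RNA of dorsal skin was hybridised to Affymetrix mouse whole-genome arrays, 21 in all. The deposited values are intensities per probe set on a linear scale, summarised and normalised by the authors before deposit. The methods name the MAS5 algorithm, and the submitters' processing notes name RMA, so the summarisation is not settled here. The array medians lay between 30.1 and 33.3, and arrays have no counting depth, so their number limits the precision. Intensities were set to at least 1 and taken to log2. Probe sets were kept where at least 1 array reached the 20th percentile of that array, and 64 control probe sets were left out, which gave 40540 of 45101 probe sets. Of these, 32317 had 1 gene symbol, 853 several and 7370 none, and genes were named only from probe sets with 1 symbol. A gene was read at its kept probe set of highest mean.

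In limma 3.58.1 (R 4.3.3) the 21 arrays entered 1 linear model with a mean for each of the 7 groups, 14 residual degrees of freedom and Benjamini-Hochberg adjustment over all probe sets, and a call needed an adjusted p of at most 0.05. The script was tested on simulated data. In all, 12 contrasts and an F test were computed, and tables and plots were made with Python 3.11.15, pandas 2.3.3 and matplotlib 3.10.9. Promoters were taken from RefSeq (GRCm38.p6), and 42 of the tested cell cycle genes matched. The cell cycle genes and all other lists were chosen with earlier results of these data known.

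Array values are given for Mki67, Top2a, Ccna2, Cdk1, Ccnd1, Mcm2 and Mcm5 and for the gene of largest change at UV week 8 in each role, and of the wider cell cycle list the 3 called genes of largest change in each set and Cdkn1a are named. Values of further cell cycle genes were chosen for printing after they were seen. Alternatives were no intensity filter, quantile normalisation, the second probe set of a gene, the 3′ to 5′ ratio of beta-actin or Gapdh as a covariate, a minimum of 2-fold, the compared groups alone, both control groups as baseline, and each array left out. The alternatives without 8 arrays of high beta-actin ratio and without x_at probe sets were chosen after seeing the data. The animal methods give 3 mice per group, and no source used here ties each array to 1 mouse, so p-values measure the spread between these samples, which may be technical.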

Additional observations from a re-analysis of the deposited data

How the results depend on the processing

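Of 426 counts of called genes recomputed under the alternatives, 348 stayed within 1.5 times the reported count and 78 did not. Many reported counts were 0, and such a count stays unless a call appears. With 1 array left out, the count higher at UV week 8 was kept in 3 of 6 fits against each control group. The count lower against control week 1 was kept in 1 of 6. For the F test 8 of 21 were kept, and for the mean of the UV groups 19 of 21 counts higher. Of 551 values of single genes at UV week 8, 397 kept their direction and side of the threshold, 98 lost a call, 22 gained one and 34 changed sign. The causes of these differences were not tested, other than that fewer samples enter a fit to the compared groups alone. No paired analysis was possible because the array numbers are not shared between groups. The limit on precision is 3 arrays per group, of which 2 at UV weeks 1, 6 and 8 have a high beta-actin ratio.

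With a minimum of 2-fold, UV week 6 had 0 genes higher and 1 lower, UV week 8 had 2 higher and 0 lower against control week 1 and 4 higher against control week 8, and the mean of the UV groups had 0. In fits to the compared groups alone, UV week 6 had 0 higher, and UV week 8 had 0 higher and 0 lower against control week 1 and 0 higher against control week 8. Of all 40540 probe sets, those fits at UV week 8 called 32 higher and 55 lower against control week 1, and 15 and 17 against control week 8. At the second probe set, UV week 8 had 5 higher and 2 lower against control week 1 and 5 higher against control week 8, the mean of the UV groups had 3 higher and the F test 3. Without x_at names, the counts higher at UV week 8 were 3 and 7 against the controls of weeks 1 and 8. The mean of the UV groups then had 4 higher and the F test 3. In the main fit 5.72% and 2.8% of all genes were called higher at UV week 8 against the controls of weeks 1 and 8. Without the 8 arrays of high beta-actin ratio, the count higher was 6 at UV week 4, and the share of all genes in that fit is not given here. UV weeks 1, 6 and 8 are then arrays 116, 443 and 551 alone. Quantile normalisation gave 1 lower at UV week 6, 0 lower at UV week 8 against control week 1, 17 higher against control week 8 and 17 higher for the mean of the UV groups. The Gapdh ratio as a covariate gave 17 higher and 1 lower at UV week 8 against control week 8, 4 lower for the mean of the UV groups and 14 for the F test, and the beta-actin ratio gave 0 lower at UV week 8 against control week 1. Both control groups as baseline gave 13 higher and 0 lower at UV week 8, beside 3568 and 3810 of 40540 probe sets. Over these probe sets, 1036 were called higher at UV week 8 against control week 8 in the main fit. Quantile normalisation gave 994 there and the Gapdh ratio as a covariate 4511.

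With 1 array left out at a time, the counts higher ranged from 0 to 4 at UV week 1, 0 to 1 at UV week 4, 0 to 6 at UV week 6, 3 to 11 at UV week 8 against control week 1, 1 to 15 against control week 8 and 5 to 13 for the mean of the UV groups. The counts lower ranged from 0 to 3 at UV week 6, 0 to 9 at UV week 8 against control week 1 and 0 to 3 for the mean of the UV groups, and the F test gave 2 to 24. The highest of these F counts came without array 551, and without array 552 it was 14. The mean of the UV groups had 5 higher without array 13 or 55. Over all 40540 probe sets the counts higher at UV week 8 moved as well. They ranged from 368 to 8870 against control week 1 and from 93 to 8032 against control week 8. For the other comparisons the counts over all probe sets with 1 array left out are not given here.

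Among the genes whose week 8 values were recomputed (those called at week 8 other than Ccne2, and Mki67, Top2a, Cdk1, Ccnd1, Mcm2 and Nek2), the log2 fold changes that changed sign were as follows, with control week 1 or 8 as the comparison. Genes outside this list were not recomputed one by one, and the other probe sets of Cenpa and Foxm1, for example, had the opposite sign against control week 1. At the second probe set they were Top2a 0.39 (week 1) and 0.11 (week 8), Ccnd1 -0.31 (week 8), Mcm2 -0.54 and -0.46, Bub1b -0.43 and -0.16, Cdt1 -0.49 and -0.62, and, the same without x_at names, Mcm5 -0.31 and -0.063 and Cdc20 -0.15 (week 1). Without the arrays of high ratio they were Top2a 0.44 and 0.75, Ccnd1 0.40 (week 1), and Nek2 0.072 and 0.20. Under quantile normalisation they were Top2a 0.14 (week 8) and Ccnd1 0.12 (week 1), and with the beta-actin ratio Top2a 0.16 (week 8) and Ccnd1 0.018 (week 1). With 1 array left out, Top2a ranged from -0.41 to 0.35 against control week 8, and was 0.0079 (without 55) and 0.35 (without 552). Cdk1 ranged from -0.11 to 0.35 against control week 1, and was -0.02 (without 16), -0.11 (without 551) and -0.09 (without 555). Ccnd1 ranged from -0.24 to 0.17 against control week 1, and was 0.05 (without 12) and 0.17 (without 552). Against control week 8 it ranged from -0.12 to 0.29, and was -0.12 (without 551) and -0.0082 (without 555). Nek2 ranged from -0.63 to 0.11 (without 552) against control week 8.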
